A study of Homo sapiens with 45 samples.

Results

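Cholesterol and fatty acid synthesis genes were followed after siRNA against HNRNPK in HCT116, an established line of human colon cancer cells. The list holds 29 genes of lipid synthesis that the SREBP transcription factors are known to control, together with the genes of the SREBP machinery itself. The members were named by symbol, and 29 of 29 were found among the 28278 gene names of the table of 8 libraries, among the 27135 names of the Scramble tables, and among the 25527 names that the tables share. The product of HNRNPK, heterogeneous nuclear ribonucleoprotein K, binds RNA and also single-stranded DNA. Of 45 samples, 35 were chromatin immunoprecipitation (ChIP) or input libraries and 10 were RNA libraries. All cells received 25 nM of siRNA by lipid transfection and were collected after 72 hours, and no untransfected cells enter the comparisons. The siNTC5 group (4 RNA libraries) and the Scramble group (2 RNA libraries) received nontargeting siRNA, and the siHNRNPK group (4 RNA libraries) received siRNA against HNRNPK. Replicates 1 and 2 of siNTC5 and siHNRNPK were prepared with the TruSeq stranded mRNA kit, and replicates 3 and 4 with the Illumina Stranded mRNA Ligation kit. The Scramble libraries were TruSeq libraries from RNA purified with another kit, and were deposited in count tables of their own. No label says that the replicates came from separate cultures, so p-values measure only the spread between these libraries. The study used 1 cell line.

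Sterol regulatory element-binding proteins (SREBPs) are transcription factors that are made as membrane proteins of the endoplasmic reticulum. When sterols are low, the escort protein SCAP carries them to the Golgi, where proteases release the active fragment, which turns on genes of cholesterol and fatty acid synthesis. When sterols are high, INSIG proteins hold SCAP in the endoplasmic reticulum. SREBF2 and INSIG1 are themselves targets of SREBPs, so that the pathway contains its own feedback. Cholesterol is built from acetyl-CoA through mevalonate, isoprenoid phosphates, squalene and lanosterol, and fatty acids are built from malonyl-CoA.

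The promoters of 5 members are printed as the 250 bases before the RefSeq start site (GRCh38.p14, 5′ to 3′ on the strand of the gene), to show genes that fell strongly next to SCAP, whose level did not pass the test. Capitals mark the motif TCACNCCAC, a form of the sterol regulatory element, and CCAAT, the motif of the factor NF-Y, on either strand, so that CCAAT on the opposite strand is printed as ATTGG.
SREBF2, chr22:41832855-41833104, plus strand: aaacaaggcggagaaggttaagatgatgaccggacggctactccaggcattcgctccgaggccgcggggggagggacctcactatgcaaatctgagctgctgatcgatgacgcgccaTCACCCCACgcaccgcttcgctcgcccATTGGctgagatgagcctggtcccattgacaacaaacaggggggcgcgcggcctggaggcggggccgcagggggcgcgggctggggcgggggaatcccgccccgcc
INSIG1, chr7:155297628-155297877, plus strand: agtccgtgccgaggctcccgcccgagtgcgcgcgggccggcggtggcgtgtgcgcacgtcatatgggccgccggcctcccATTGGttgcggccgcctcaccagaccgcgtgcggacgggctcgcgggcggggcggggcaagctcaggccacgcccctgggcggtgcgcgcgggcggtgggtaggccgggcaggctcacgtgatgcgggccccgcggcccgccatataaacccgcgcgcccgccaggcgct
STARD4, chr5:111512536-111512785, minus strand: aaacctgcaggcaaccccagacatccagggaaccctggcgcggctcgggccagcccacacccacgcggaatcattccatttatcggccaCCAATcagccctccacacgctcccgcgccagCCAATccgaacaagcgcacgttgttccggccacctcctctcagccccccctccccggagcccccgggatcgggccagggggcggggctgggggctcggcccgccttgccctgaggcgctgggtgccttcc
FDPS, chr1:155308616-155308865, plus strand: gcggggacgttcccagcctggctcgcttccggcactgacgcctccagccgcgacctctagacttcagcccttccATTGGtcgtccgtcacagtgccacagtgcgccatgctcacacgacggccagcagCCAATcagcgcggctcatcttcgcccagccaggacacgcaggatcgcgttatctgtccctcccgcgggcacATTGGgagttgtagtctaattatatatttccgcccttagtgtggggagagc
SCAP, chr3:47475942-47476191, minus strand: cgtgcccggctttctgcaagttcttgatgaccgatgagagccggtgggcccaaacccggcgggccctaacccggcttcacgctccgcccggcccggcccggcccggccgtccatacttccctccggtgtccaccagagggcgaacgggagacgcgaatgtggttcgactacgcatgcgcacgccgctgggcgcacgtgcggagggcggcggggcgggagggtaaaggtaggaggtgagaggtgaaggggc
The SREBF2 promoter held 1 match to each motif, with the TCACNCCAC match beginning at position -133, counted from the start site as 0. INSIG1 held 1, STARD4 2 and FDPS 3 matches to CCAAT, and SCAP held none of either motif. These 5 promoters were picked knowing how the genes moved. SREBF1, INSIG2, PMVK, LPIN1 and CYP51A1 fell with no match to CCAAT in their windows, and SC5D, which did not pass, has one. SCAP and ELOVL6, which did not pass either, have none, and the remaining members with a window fell and have a match. Whether a match goes with the change was not tested.

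RefSeq promoter windows of 300 bases (250 before and 50 after the start) were found for 25 of the 29 members, in 35 windows; FDFT1, SQLE, ACAT2 and FASN had none. CCAAT was found on either strand in 18 of 25 members (72%), against 43% of the 10620 tested genes with a window, and in 60% of the member windows against 34.6% of all 35116 windows. GGGCGG, a core of the GC box, was found in 24 of 25 members (96%) against 76.1% of tested genes with a window, and in 88.6% of member windows against 45% of all. TCACNCCAC was found in SREBF2 alone, in 2.86% of member windows against 1.13% of all. CACGTG, the E-box that SREBP-1 can also bind, was found in INSIG1, LSS, SC5D and SCAP (16% of members against 12.3% of tested genes, and 14.3% of member windows against 7.26% of all). Both strands were searched for all 4 motifs, matches of different motifs may overlap, and a match is only an occurrence of the letters in the window.

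The RNA libraries held 12107280 to 23633851 counts in siNTC5 and siHNRNPK, and 55007171 and 59209169 counts in Scramble. HNRNPK was measured at 934, 967, 822 and 814 CPM (counts scaled to a common library total, with TMM factors) in siNTC5 replicates 1 to 4 and at 250, 223, 157 and 164 CPM in siHNRNPK. The siRNA target was thus at 22.2% of its control level, with a log2 fold change of -2.17 (SE 0.06; edgeR quasi-likelihood test, adjusted p = 7.29e-15). All 7 epithelial markers were at or above 1 CPM in every library. Their summed level was 2850 to 3340 CPM in siNTC5, 4540 to 5590 CPM in siHNRNPK and 4750 to 4910 CPM in Scramble. Of the 5 fibroblast and 4 leukocyte markers, only 1 in each list was at or above 1 CPM in every library. LUM and CD3E were at 0 in every library. The summed fibroblast markers were at 43.7 to 73 CPM in siNTC5, 75.1 to 122 CPM in siHNRNPK and 31.8 to 35.1 CPM in Scramble, and the leukocyte markers at 17.7 to 24.4, 21.6 to 27 and 55.1 to 62.9 CPM. The highest single marker reached 121 CPM in the fibroblast list and 62.9 CPM in the leukocyte list. The highest sums thus rest almost wholly on 1 gene each, not on the whole list. The 3 endothelial markers summed to at most 3.29 CPM and the 3 hepatocyte markers to at most 0.573 CPM. The part of these shifts in the lipid gene results was not tested.

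Most of the lipid synthesis genes fell after HNRNPK knockdown. Of the 29 members, 26 were lower and 0 higher in siHNRNPK than in siNTC5 (edgeR quasi-likelihood test with Benjamini-Hochberg adjustment, threshold 0.05), against 36.1% of the 13933 tested genes called lower and 35.5% called higher. All 29 estimates were negative, although that of SCAP turned to 0.02 under upper-quartile normalisation. The median log2 fold change of the members was -0.99, against 0 over all tested genes. In 25 members every siHNRNPK library lay below every siNTC5 library, which held for 28% of tested genes. A fall of at least 2-fold was called in 14 members, against 8.28% of tested genes. The list was chosen with earlier results of these data known, so these shares describe the members and are no independent test. The decrease was similar in each knockdown library, with medians over the members of -0.98, -0.94, -0.95 and -0.94 in replicates 1 to 4 relative to the controls of the same kit (SD 0.02). In bulk RNA, fewer cells of a type and less RNA per cell cannot be told apart.

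**Figure D1:**
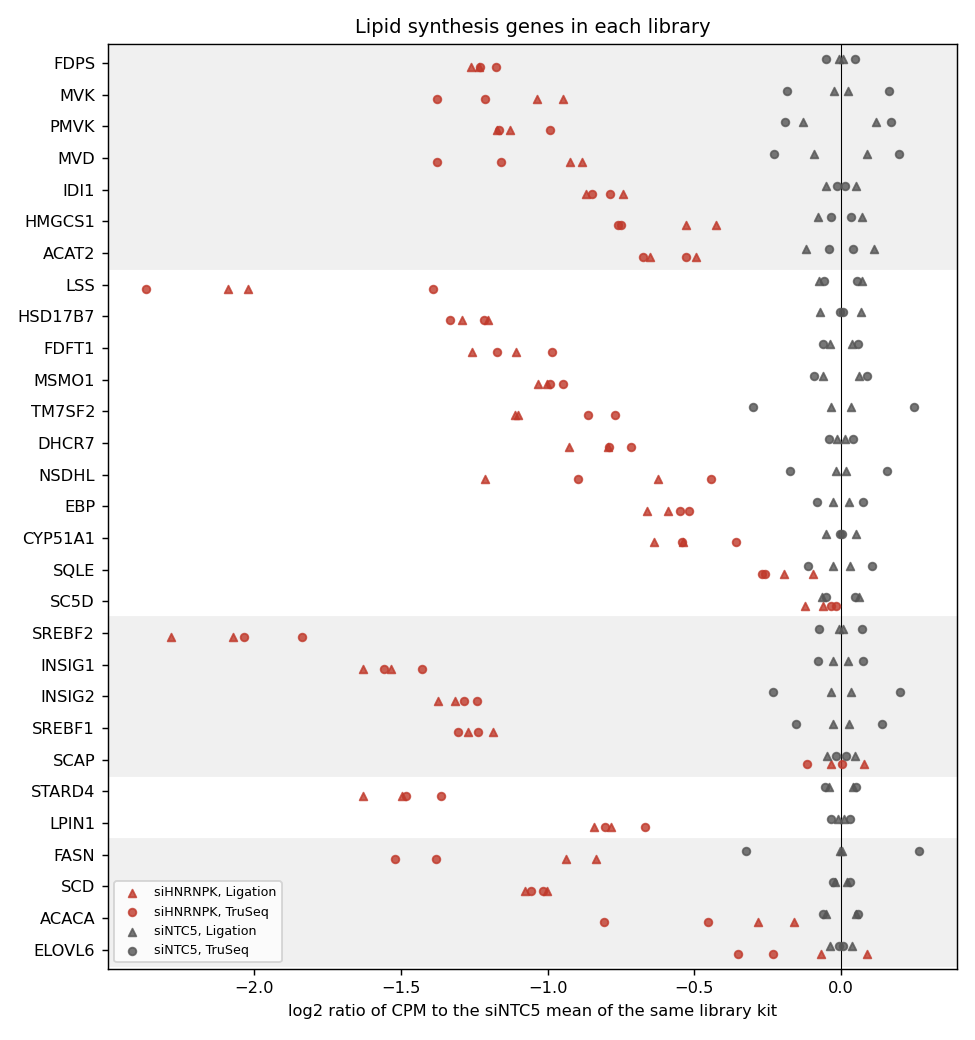
Level of each of the 29 members in each siNTC5 and siHNRNPK library, as the log2 ratio of its CPM to the siNTC5 mean of the same library kit; points are libraries, marker shape is the kit, and shaded bands separate the groups of mevalonate steps, squalene and sterol steps, SREBP machinery, sterol transport and phosphatidate, and fatty acid steps. The siHNRNPK points of SREBF2 lie near -2, whereas those of SCAP and SC5D lie around 0 and overlap the siNTC5 points.

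Among the genes of the SREBP machinery, 4 of 5 fell (median log2 fold change -1.3) and SCAP did not pass the test. SREBF2, which encodes SREBP-2, the main activator of cholesterol synthesis, was measured at 426, 385, 445 and 449 CPM in siNTC5 replicates 1 to 4 and at 113, 98.9, 91.8 and 106 CPM in siHNRNPK. The knockdown libraries lay far below every control. The mean fell from 426 ± 29.3 to 103 ± 9.28 CPM (SD, n = 4), or -2.05 on the log2 scale (SE 0.06; edgeR, adjusted p = 7.51e-15). SREBF2 ranked 131 from the lowest fold change among the 13933 tested genes, next to rank 94 for the siRNA target itself. SREBF1, which encodes SREBP-1 and is best known for fatty acid synthesis, was at 264, 216, 313 and 301 CPM in siNTC5 and at 102, 97.1, 127 and 135 CPM in siHNRNPK. Within both groups the Ligation libraries were the higher ones, and the groups did not overlap. Its log2 fold change was -1.25 (SE 0.06; edgeR, adjusted p = 8.12e-13).

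INSIG1, the sterol-responsive retention protein, was at 185, 166, 178 and 185 CPM in siNTC5 and at 65.1, 59.6, 62.8 and 58.8 CPM in siHNRNPK. All 4 knockdown libraries lay within a few CPM of each other, far below the controls, with a log2 fold change of -1.53 (SE 0.05; edgeR, adjusted p = 2.68e-14). INSIG2, its paralog, was at 61.3, 45.4, 59.1 and 56.3 CPM in siNTC5 and at 21.9, 22.6, 23.2 and 22.3 CPM in siHNRNPK. The fall of INSIG2 was 2.46-fold (log2 fold change -1.3, SE 0.08; edgeR, adjusted p = 1.38e-10). SCAP, the escort protein, was at 87.6, 89.9, 94.3 and 88.2 CPM in siNTC5 and at 88.9, 81.9, 89.2 and 96.3 CPM in siHNRNPK. The SCAP groups overlapped. Its log2 fold change of -0.02 had a 95% confidence interval of -0.12 to 0.09 (edgeR, adjusted p = 0.797).

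**Figure D2:**
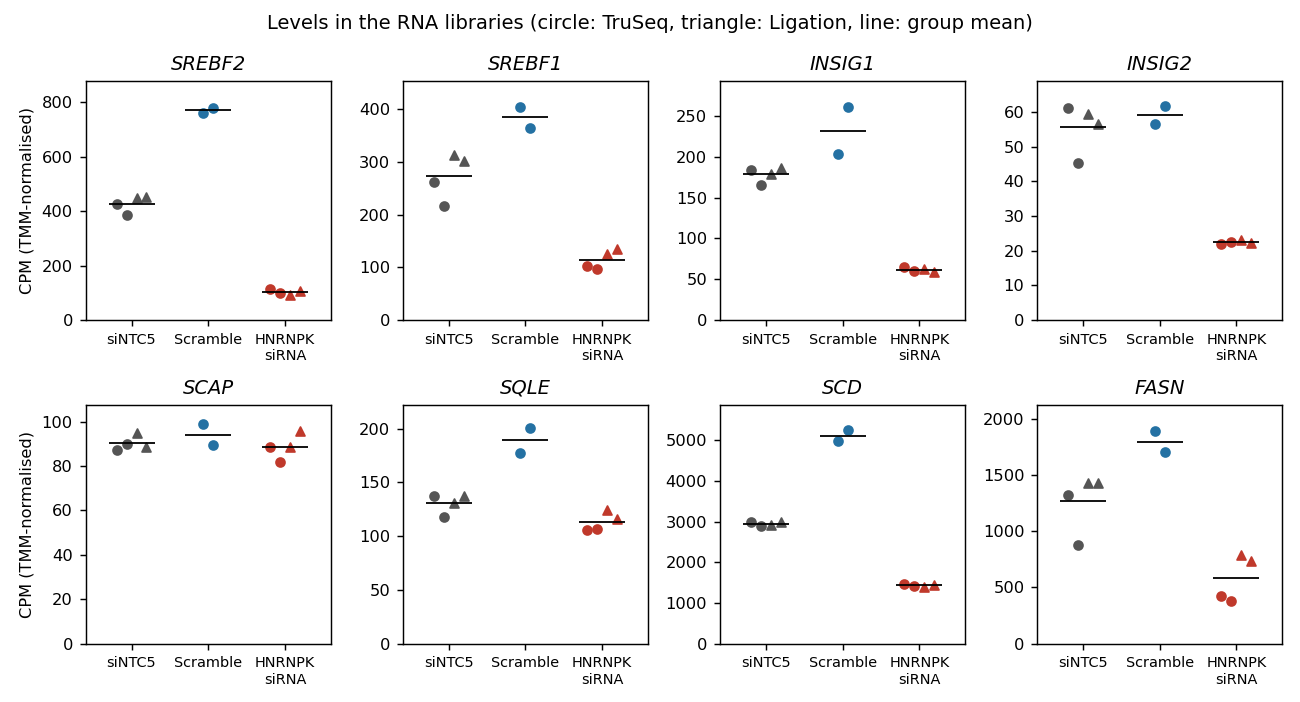
Levels of 8 members in all 10 RNA libraries, as CPM normalised over the 10 libraries on linear axes from 0; circles are TruSeq and triangles Ligation libraries, and lines are group means. SREBF2, SREBF1, INSIG1, INSIG2, SCD and FASN were lower in every siHNRNPK library than in every library of both controls, whereas the SCAP groups overlapped and SQLE overlapped with siNTC5.

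SREBF2-AS1, an antisense gene that overlaps SREBF2, was singled out after its values were seen. It was at 6.27 ± 0.508 CPM in siNTC5 and 7.77 ± 0.852 CPM in siHNRNPK (SD, n = 4), or 0.31 higher on the log2 scale (SE 0.12; edgeR, adjusted p = 0.0283). Whether counting used the strand is not given in the sources used here, so reads of the pair may not be told apart. By RefSeq positions (GRCh38.p14), 17 of the 29 members overlap another annotated gene, among them the microRNA genes MIR33A in SREBF2 and MIR33B in SREBF1. HSD17B7 has a pseudogene of similar sequence, so that its counts are uncertain to that extent.

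All 7 members of the mevalonate steps fell, with a median log2 fold change of -1.07. FDPS, which makes farnesyl diphosphate, was at 168, 180, 141 and 142 CPM in siNTC5 and at 76.9, 74, 58.9 and 60.1 CPM in siHNRNPK. The FDPS groups did not overlap in either kit, and its log2 fold change was -1.22 (SE 0.05; edgeR, adjusted p = 8.5e-14). MVK, mevalonate kinase, was at 35.6, 28, 29.4 and 30.4 CPM in siNTC5 and at 13.7, 12.3, 15.5 and 14.6 CPM in siHNRNPK. Every MVK knockdown library lay below every control, at a mean of 45.4% of control (log2 fold change -1.14, SE 0.1; edgeR, adjusted p = 4.23e-09).

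PMVK, which adds the next phosphate, was at 15.2, 11.8, 19.4 and 16.3 CPM in siNTC5 and at 6.79, 6.02, 7.92 and 8.16 CPM in siHNRNPK. Its groups did not overlap (log2 fold change -1.1, SE 0.11; edgeR, adjusted p = 7.1e-08). MVD, the decarboxylase that follows, was at 68.6, 51, 91.6 and 80.8 CPM in siNTC5 and at 26.8, 23, 46.8 and 45.5 CPM in siHNRNPK. The Ligation libraries of MVD were higher in both groups, and the knockdown libraries stayed below all controls (log2 fold change -1.07, SE 0.09; edgeR, adjusted p = 6.73e-09). HMGCS1, which condenses acetyl-CoA units to HMG-CoA, was at 210, 200, 160 and 178 CPM in siNTC5 and at 121, 122, 126 and 117 CPM in siHNRNPK. The fall of HMGCS1 was 1.54-fold (log2 fold change -0.62, SE 0.06; edgeR, adjusted p = 1.4e-08). IDI1, the isopentenyl diphosphate isomerase, and ACAT2, a thiolase that joins acetyl-CoA units, changed by log2 -0.81 (SE 0.05) and -0.58 (SE 0.07), both with groups that did not overlap.

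Of the 11 members of the squalene and sterol steps, 10 fell (median log2 fold change -0.8). LSS, which closes squalene epoxide into lanosterol, was at 15.1, 16.3, 13.7 and 15.1 CPM in siNTC5 and at 6, 3.05, 3.54 and 3.38 CPM in siHNRNPK. Replicate 1 was the highest of the LSS knockdown libraries and still lay below every control, and the fall was 3.74-fold (log2 fold change -1.9, SE 0.15; edgeR, adjusted p = 1.8e-09). HSD17B7, a sterol ketoreductase, was at 21.5, 21.7, 19.8 and 21.8 CPM in siNTC5 and at 8.57, 9.28, 9.02 and 8.49 CPM in siHNRNPK. Both HSD17B7 groups were narrow (log2 fold change -1.26, SE 0.09; edgeR, adjusted p = 3.88e-10). FDFT1, squalene synthase, was at 41.3, 38, 42.4 and 44.7 CPM in siNTC5 and at 20, 17.6, 18.2 and 20.2 CPM in siHNRNPK. FDFT1 fell 2.18-fold without overlap of the groups (log2 fold change -1.12, SE 0.07; edgeR, adjusted p = 1.71e-10). The Scramble means of LSS and FDFT1 were 92.8 and 316 CPM. Whether the 8 libraries hold all reads of these genes was not tested.

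SQLE, the squalene epoxidase, moved little. It was at 137, 118, 131 and 136 CPM in siNTC5 and at 106, 107, 125 and 117 CPM in siHNRNPK, so that knockdown replicate 3 lay above the lowest control. Its fall of 1.15-fold passed the test (log2 fold change -0.2, SE 0.05; edgeR, adjusted p = 0.00206). SC5D, the lathosterol desaturase, averaged 74.6 ± 3.43 CPM in siNTC5 and 71.7 ± 2.89 CPM in siHNRNPK (SD, n = 4). SC5D did not pass the test, with a log2 fold change of -0.06 and a 95% interval of -0.17 to 0.05 (edgeR, adjusted p = 0.334). The other 6 sterol genes fell without overlap of the groups, from MSMO1, the C4 methyl oxidase, with log2 -0.99 (SE 0.05), to CYP51A1, the lanosterol demethylase, with log2 -0.52 (SE 0.05). Between them were TM7SF2, a sterol reductase (-0.96), DHCR7, which makes cholesterol in the last step of one branch (-0.8), NSDHL, a decarboxylating dehydrogenase (-0.76), and EBP, the sterol isomerase (-0.58).

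Both STARD4 and LPIN1 fell. STARD4, a carrier that moves cholesterol between membranes, was at 158, 147, 151 and 160 CPM in siNTC5 and at 59.3, 54.7, 55.1 and 50.3 CPM in siHNRNPK. Its knockdown libraries averaged 35.6% of the controls (log2 fold change -1.49, SE 0.05; edgeR, adjusted p = 5.74e-14). LPIN1, a phosphatidate phosphatase, fell from 56.8 ± 1.1 to 33.2 ± 1.86 CPM (SD, n = 4; log2 fold change -0.77, SE 0.06).

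Of the 4 fatty acid members, 3 fell. SCD, which puts the first double bond into saturated fatty acids, was at 3010, 2890, 2890 and 2980 CPM in siNTC5 and at 1460, 1420, 1390 and 1460 CPM in siHNRNPK. The spread of SCD within each group was small beside the difference, a log2 fold change of -1.04 (SE 0.04; edgeR, adjusted p = 7.92e-14). FASN, the fatty acid synthase, was at 1320, 878, 1420 and 1420 CPM in siNTC5 and at 422, 383, 795 and 742 CPM in siHNRNPK. Control replicate 2 was the lowest control and the TruSeq knockdown libraries were the lowest of all, yet the groups did not overlap (log2 fold change -1.17, SE 0.11; edgeR, adjusted p = 1.32e-08). ACACA, the acetyl-CoA carboxylase that makes malonyl-CoA, had few reads in these 8 libraries. It was at 3.93 ± 0.43 CPM in siNTC5 and 2.93 ± 0.346 CPM in siHNRNPK (SD, n = 4). Its Scramble mean was 362 CPM, and whether the 8 libraries hold all of its reads was not tested. Its fall passed narrowly (log2 fold change -0.43, SE 0.17; edgeR, adjusted p = 0.03), and the call was lost in 8 of 18 alternatives, among them each kit alone and the DESeq2 test. ELOVL6, which elongates palmitate, did not pass (log2 fold change -0.14, 95% interval -0.28 to -0.01; edgeR, adjusted p = 0.0512) but was called in 5 of 18 alternatives.

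The fall of the members was seen with each library kit. With the TruSeq libraries alone 26 members were called lower, against 29.2% of genes tested there, and with the Ligation libraries alone 25, against 34.3%. No member was called for a difference in the knockdown effect between the kits (edgeR interaction term; 0.129% of tested genes called), while 5 of 29 members had an unadjusted p under 0.05, as did 11.8% of tested genes, and DESeq2 called 0 members. The 5 were FASN, HMGCS1, ELOVL6, SREBF2 and MVD. FASN had a log2 fold change of -1.44 (SE 0.13) with TruSeq and of -0.89 (SE 0.05) with Ligation, and SREBF2 of -1.93 (SE 0.07) and -2.18 (SE 0.06). Without siNTC5 replicate 1 the interaction was called for 1 member, and without siNTC5 replicate 2 for 3. The shares of all tested genes called in those fits were not counted. Within the siNTC5 controls, 10 members differed between the kits, 5 higher and 5 lower with Ligation, against 21.5% of tested genes. Without siNTC5 replicate 3, 5 were called, and the share of all tested genes in that fit was not counted. Of the 10, TM7SF2 had the highest difference between the control kits (log2 0.75, SE 0.14) and EBP the lowest (log2 -0.33, SE 0.07).

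The second set of nontargeting libraries, Scramble, stood apart from siNTC5 in these genes. All Scramble libraries were TruSeq and kit was in the model, so the fold changes rest on siNTC5 replicates 1 and 2. Of the 29 members, 23 were called between Scramble and siNTC5, 17 higher and 6 lower, against 35.1% and 33.5% of 14263 tested genes. SREBF2 was at 762 and 779 CPM in the Scramble libraries, above all siNTC5 libraries (log2 fold change 0.88, SE 0.06), and SREBF1, INSIG1, STARD4, FASN and SCD were also higher. ACACA was at 371 and 354 CPM in Scramble against a siNTC5 mean of 3.94 CPM, from 18544 and 16309 reads against 52 to 98. FDFT1 was at 311 and 320 CPM against 41.7, and LSS at 93.4 and 92.3 CPM against 15.1. Log2 differences of 2.5 or more, as in these 3 members, were found for 891 of the tested genes (6.25%). Whether the counts of these 3 genes in either set of tables hold all of their reads was not tested, and their levels and fold changes in the 8 libraries are subject to that limit. Lower in Scramble were LPIN1 (log2 -0.92, SE 0.09), ACAT2 (-0.76, SE 0.08), EBP, ELOVL6, FDPS and HSD17B7, of which HSD17B7 lost its call in 9 of 13 alternatives. The siRNA label, the RNA purification kit, the depth and the count table differ between these control sets together and cannot be told apart.

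Against Scramble, 24 members were lower and 0 higher in siHNRNPK, against 42.8% of 14217 genes tested. With kit in the model, fold changes against Scramble rest on siHNRNPK replicates 1 and 2, the TruSeq libraries. The Ligation libraries enter the estimate of spread. This comparison and the one with siNTC5 share the siHNRNPK libraries, so their counts are not independent. Both comparisons called 23 members lower, and the share of all tested genes called lower in both was not counted. SREBF2 had a log2 fold change of -2.85 (SE 0.06) against Scramble, INSIG1 of -1.89 (SE 0.08), SREBF1 of -1.95 (SE 0.06), STARD4 of -1.9 (SE 0.07) and FASN of -2.15 (SE 0.06). EBP, ACAT2 and LPIN1 passed against siNTC5 but not against Scramble, where their log2 values were -0.05, 0.12 and 0.14. SC5D passed against Scramble (log2 -0.65, SE 0.06) but not against siNTC5. Neither SCAP nor ELOVL6 passed against either control set, with SCAP at -0.13 (95% interval -0.27 to 0; edgeR, adjusted p = 0.0598) and ELOVL6 at 0.01 against Scramble. In 4 of 13 alternatives SCAP was called lower than Scramble, among them TruSeq alone, without siHNRNPK replicate 1 and without Scramble replicate 2. LPIN1 was called higher than Scramble in 3 of 13, ACAT2 in 2 and ELOVL6 in 1, in each case including upper-quartile normalisation. The log2 fold changes against Scramble were -7.03 for ACACA, -4.33 for LSS and -4.06 for FDFT1, the 3 members with the large difference between the control sets given above.

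**Figure D3:**
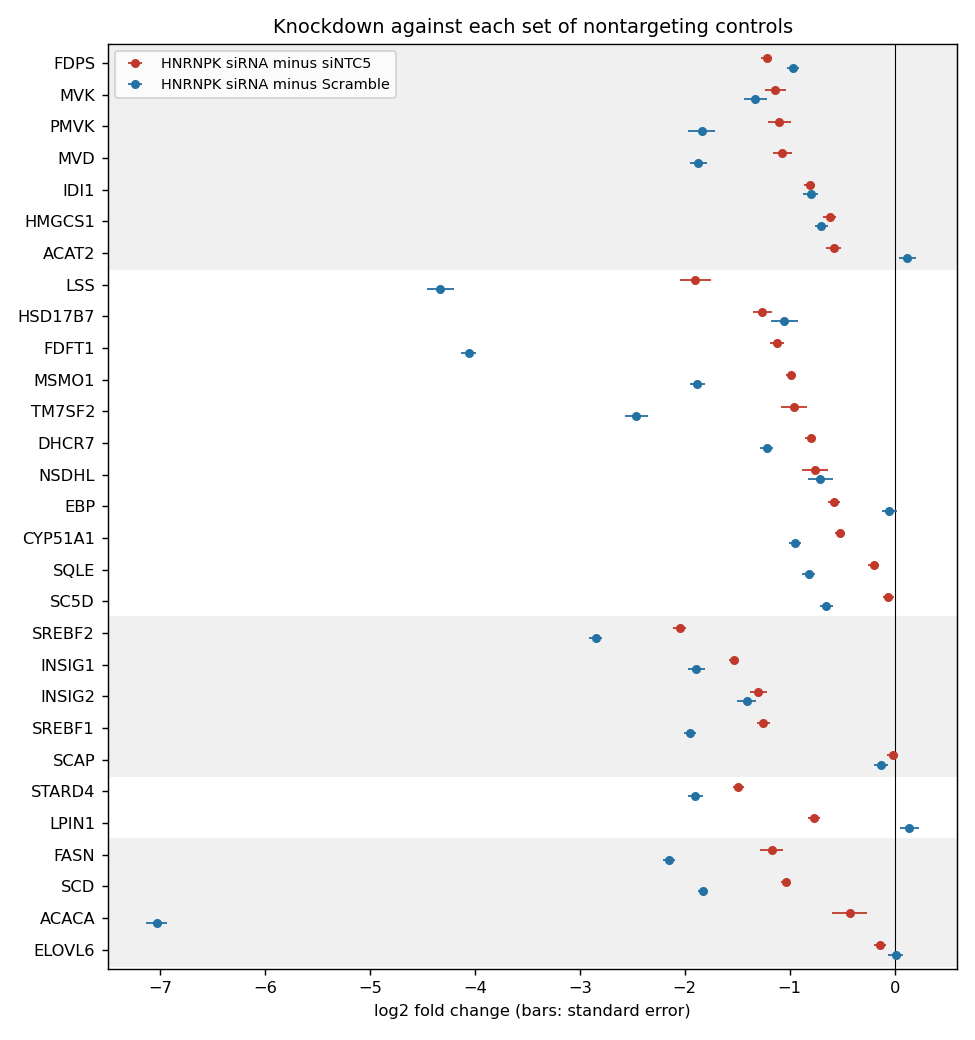
Log2 fold changes of the 29 members in siHNRNPK against siNTC5 (red) and against Scramble (blue), with standard errors as bars; the shaded bands separate the groups of genes in the same order as in the plot by library. SREBF2 lies at -2.05 and -2.85, SCAP at -0.02 and -0.13, and EBP, ACAT2, LPIN1 and ELOVL6 lie between -0.05 and 0.14 against Scramble. The values against Scramble rest on the TruSeq libraries of siHNRNPK.

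Neighbouring genes of the pathway were taken from lists of non-members, and their counts are read against the 71.5% of tested genes called in this comparison, 36.1% lower and 35.5% higher. Among regulators of SREBP processing and sterol-dependent degradation, 10 of 11 names were tested (SPRING1 was counted under its older name C12orf49) and 8 were called against siNTC5, 4 lower and 4 higher (median log2 fold change -0.01), which is near that background. MBTPS1, the first protease that cuts SREBPs, fell (log2 -0.52, SE 0.04), TMEM97, a sterol-responsive membrane protein, fell (-0.7, SE 0.07), and RNF145, a ubiquitin ligase of the endoplasmic reticulum, rose (0.7, SE 0.05). MBTPS2, the second protease, was at 33.5 and 33 CPM and did not pass. In the isoprenoid branches, 7 of 11 were called, 3 lower and 4 higher (median 0.01), again near the background. GGPS1, which makes geranylgeranyl diphosphate, was at -0.63 (SE 0.08). NUS1, a dolichol synthesis subunit, was at 0.45 (SE 0.05), and COQ2, of ubiquinone synthesis, at 0.35 (SE 0.09). Against Scramble, 42.8% of tested genes were lower and 38.8% higher. There the SREBP processing list had 6 lower and 2 higher (median -0.37), and the isoprenoid list 5 lower and 6 higher (median 0.17).

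Among other lipogenic genes, 14 of 15 were tested and 13 called, 11 lower and 2 higher (median -0.27). ACSS2, which makes acetyl-CoA from acetate, fell from 102 ± 7.07 to 27 ± 1.88 CPM (SD, n = 4; log2 -1.92, SE 0.07; edgeR, adjusted p = 3.18e-14). FADS1, a desaturase of polyunsaturated fatty acids, fell (log2 -1.23, SE 0.05), as did MLXIPL, the carbohydrate-responsive lipogenic factor (-1.07, SE 0.06). ACLY, which makes cytosolic acetyl-CoA from citrate, fell less (log2 -0.19; edgeR, adjusted p = 0.000784), and GPAM, of glycerolipid synthesis, rose (0.5). Among genes of LXR and sterol handling, 10 of 11 were called, 5 lower and 5 higher (median -0.13), with the even split that all tested genes show. SCARB1, the receptor for high-density lipoprotein, fell (-1.44, SE 0.05). ABCA1, the cholesterol exporter, rose from 2.41 to 5.83 CPM (1.28, SE 0.18), and OSBP, an oxysterol-binding transfer protein, rose (0.49, SE 0.04). Against Scramble the LXR and sterol handling list was less even, with 7 lower and 2 higher (median -0.41).

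Genes of fatty acid oxidation, which break down what the lipogenic enzymes build, also fell: 15 of 15 were called, 14 lower and 1 higher (median log2 fold change -0.69). ECI1, an isomerase of unsaturated intermediates, had a log2 fold change of -2.05 (SE 0.13), HADH, a dehydrogenase of the oxidation cycle, of -1.85 (SE 0.08), and ETFB, an electron carrier subunit, of -1.79 (SE 0.08). CPT1A, which admits fatty acids to mitochondria, fell from 136 to 74.9 CPM (log2 -0.86), and HADHB was the one gene of this list that rose (0.19). A difference between these lists and the 29 members was not tested.

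**Figure D4:**
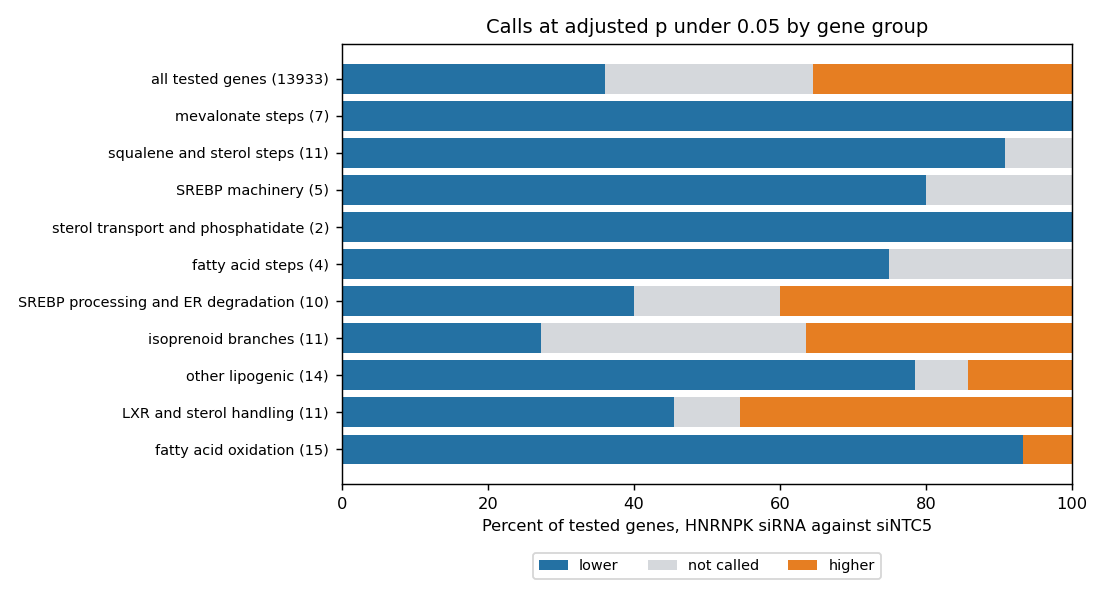
Percent of tested genes called lower, not called and called higher in siHNRNPK against siNTC5 for all tested genes, for the 5 groups of members and for the 5 lists of non-members, with the number tested in parentheses. Among all tested genes 36.1% were lower and 35.5% higher; the 5 groups of members have no call in the higher direction.

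Chromatin domains were deposited as 7 lists, 1 for each antibody and siRNA, with no replicates, so differences between them have no replicate check. Across the lists, 0 to 5 of the 29 members lay inside domains. Gene bodies were counted as inside a domain when at least 50% of their length was covered. In control cells, 5 members lay in H3K27me3 domains, which mark Polycomb-repressed chromatin: INSIG1 and SC5D over 100% of the body, MVK over 72.9%, LSS over 53.4% and LPIN1 over 51.7%. That is 5 of 29, beside 9.83% of the 13482 tested genes with a position. After knockdown 3 did (MVK, SC5D and INSIG1, beside 8.4%), with LSS at 41% and LPIN1 at 0. Both INSIG1, which fell, and SC5D, which did not pass, were covered whole in both lists. No member lay in an H3K9me2 domain (control list alone, 1.2% of tested genes).

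Lamin B1 domains, regions in contact with the nuclear lamina, held 0 members in control cells (2.96% of tested genes) and 2 after knockdown (2.57%). MVK (chr12:109573272-109598125) lay whole in a domain of 120 kb, chr12:109495001-109615000, with a deposited score of 0.601. FASN (chr17:82078338-82098236) lay whole in a domain of 220 kb, chr17:82030001-82250000, with a score of 0.59. In control cells the nearest lamin B1 domain was 1063.3 kb from MVK and 11378.3 kb from FASN. Both genes fell in RNA, as did 24 members that lay in no lamin B1 domain in either list, beside 36.1% of all tested genes. Whether lamin B1 domains go with the change in RNA was not tested. For H3K9me3, a mark of constitutive heterochromatin, 0 members were inside in control cells (2.94%) and 1 after knockdown (5.9%), HMGCS1, whose coverage was 13.2% and then 51.7%. SQLE was covered over 48.3% in both H3K9me3 lists. SREBF2, SREBF1, INSIG2 and STARD4 met no domain of any list.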

How the data were processed

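Gene counts were deposited by the authors as raw whole-number counts per gene symbol. Per the submitters' processing notes, reads were aligned with STAR 2.7.1a and counted with featureCounts (Subread 2.0.6); the notes of the Scramble libraries name both hg19 and hg38. The strand counted and the annotation are not given in the sources used here. ChIP domain lists were deposited with a score per domain, and the domain positions were used as deposited (0-based starts shifted to 1-based); per the submitters' processing notes Bowtie2 2.5.1 and deepTools 3.1.3 were used, while the caller, the unit of the score and the pooling are not given in the sources used here.

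The 29 members and the gene lists were chosen with earlier results of these data known. After filterByExpr and TMM normalisation, counts were tested by quasi-likelihood in edgeR 4.0.16 (limma 3.58.1, R 4.3.3), with kit and treatment in the model and Benjamini-Hochberg adjustment over all genes at 0.05. The 8 libraries of siNTC5 and siHNRNPK were fitted together. Comparisons with Scramble used the shared names. Since Scramble has TruSeq libraries alone, the kit term leaves those fold changes to the TruSeq libraries of the other group. Values in every library are given for members that changed by 1 or more on the log2 scale, for the SREBP machinery and for HMGCS1, SQLE, FASN and SCD, and from each list the 3 genes with the largest change are named, with a few more chosen after their values were seen. Same-numbered libraries deviated together across genes (r = 0.1518, 0.5312, 0.4419 and 0.3624 for replicates 1 to 4), where the kit is shared. After kit and treatment were removed r was -0.2006, -0.1505, -0.3082 and -0.2707. Removing them from 8 libraries by itself pushes r below 0, so these values cannot show whether same-numbered libraries were paired. Gene positions and promoters are from RefSeq GRCh38.p14. Alternatives included DESeq2 1.42.0, other normalisations and filters, a replicate block, single kits and leaving out each library. The edgeR fits of the 8 libraries (treatment, kit interaction and kit in controls) were tested on simulated data. The Scramble comparisons and the domain and promoter steps were not. Far fewer genes changed in the simulation than were called here, so it does not check the fits where most genes move. Figures were drawn with matplotlib 3.10.9 in Python 3.11.15.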

Additional observations from a re-analysis of the deposited data

Results flagged for a closer look

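The CPM of each of the 29 members was checked in siNTC5 and siHNRNPK for a library far from the other 3 of its group, 58 checks in all, of which chance flags about 1 in 20; 3 were found. NSDHL was high in siNTC5 replicate 2, at 28.4 CPM, where the nearest library was at 23.1 CPM. HSD17B7 was low in siNTC5 replicate 3, at 19.8 CPM, with the nearest at 21.5 CPM. FASN was low in siNTC5 replicate 2, at 878 CPM, with the nearest at 1320 CPM. The calls of NSDHL, HSD17B7 and FASN against siNTC5 held in all 18 alternatives.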

How the results depend on the processing

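Over 18 alternatives, members called lower ranged from 22 to 27, and none was called higher; with a minimum absolute log2 fold change of 1 the count was 14. Of 522 member values, 501 kept their direction and side of the threshold, and 23 of 29 members did so in every alternative. The median log2 fold change of the members, -0.99, was -0.96 with upper-quartile normalisation, -1.03 without a filter, -0.96 with a mean of at least 50 counts, -1.2 with Scramble added to the controls, -0.96 with TruSeq alone, -0.91 with Ligation alone, and -1.05 to -0.96 with each library left out. With Scramble added, 22 were called: ACACA (-3.62), SQLE (-0.39), ACAT2 (-0.4) and LPIN1 (-0.55) lost their calls; the cause was not tested. The sign of SCAP against siNTC5, where it was not called in any alternative, turned with upper-quartile normalisation (0.02), a mean of at least 50 counts (0.01), Ligation alone (0.02) and without siHNRNPK replicate 2 (0.01; range with each library left out -0.05 to 0.01), and that of ELOVL6 with Ligation alone (0). A replicate block in place of kit gave 26 called, a median of -0.99 and no changed call among members. The kit interaction was called for 1 member without a filter and for 0 to 3 with each library left out, and the kit difference in controls for 5 to 14. The shares of all tested genes called in these alternatives were not counted. Members in H3K27me3 domains were 2 by whole bodies in the control list and 5 by any overlap after knockdown. In H3K9me3 domains, any overlap gave 2 in control and 2 after knockdown, and whole bodies 0 after knockdown. The shares of all tested genes by any overlap or by whole bodies were not counted. Precision for ACACA and LSS in siHNRNPK is limited by 35 to 42 and 41 to 91 counts a library.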
